A study of Mus musculus with 3 samples.

Results

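The comparison set single wells of a heart cell library labelled D1_INO80_OE, titled as 1 day of tamoxifen treatment, against wells with little Ino80 messenger RNA in the library titled as 3 days. Members were selected on measured values: wells with at least 1000 counts and 300 detected genes were kept, wells with a macrophage sum (Lyz2, C1qa, C1qb and C1qc) or a fibroblast sum (Dcn, Col1a1, Col3a1 and Lum) of 1000 CPM or more were dropped, and then day 1 wells with Ino80 at 1000 CPM or more and day 3 wells with Ino80 under 100 CPM were chosen. CPM is a gene's count per 1e+06 counts of nuclear-encoded mouse genes. This gave 838 day 1 Ino80-high wells and 458 day 3 Ino80-low wells, 1296 of the 2331 wells of both libraries and of the 3394 wells of the series. Because Ino80 itself chose the wells, its values are a description and support nothing.

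The title of the series gives Myh6-MCM, a Cre recombinase that tamoxifen activates (MerCreMer), driven by the cardiomyocyte myosin heavy chain promoter, together with floxed Ino80 (Ino80fl/fl), whereas the genotype labels read INO80_OE. All wells carry the treatment label tamoxifen (spelled tarmoxifen there), and both libraries are labelled adult cardiomyocyte from heart. The day 1 wells carry the label D1_INO80_OE alone. The day 3 library carries the labels D3_INO80_OE and D3_Ctrl together, and the files do not say which of its wells belong to which, so the Ino80-low wells are control-like by their Ino80 level only. The remaining 433 day 3 wells with Ino80 at 1000 CPM or more are given beside the pair where they help to read it. From here on, a level given as on day 1 without another name is that of the day 1 Ino80-high wells, and Ino80-low wells are those of day 3. Animal age, strain and the number of animals are not stated in the labels. With 1 library on each side there are no replicates, and wells of 1 library are not replicates of a condition, so no test was made: each difference is between these libraries, and day, genotype label and library cannot be told apart.

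Ino80 is the ATPase of the INO80 complex, a chromatin remodeller that slides nucleosomes and exchanges histone variants at promoters and enhancers, and works in transcription, replication and DNA repair. An adult cardiomyocyte contracts by releasing calcium from the sarcoplasmic reticulum and pumping it back, is joined to its neighbours at the intercalated disc, and draws most of its energy from fatty acid oxidation in mitochondria. Under stress it lowers many of these genes and turns on a set also active in the fetal heart.

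The day 1 Ino80-high wells held a median of 329042 counts (5060 to 1776767) and 3254 detected genes, and the day 3 Ino80-low wells a median of 438362 counts (1789 to 1866387) and 3872 genes. Of the kept and unmarked wells, 5 of 964 on day 1 lay under 100 CPM of Ino80 and 121 lay between the limits, while on day 3 51 of 942 lay between them. Mitochondrial counts took a median of 40.7% of mouse counts in the day 1 Ino80-high wells (quartiles 37.2 to 45.0) and 22.25% in the day 3 Ino80-low wells (20.2 to 26.7). The day 3 Ino80-high wells stood at 19.8%. The 2 libraries share 268 well barcodes, 65 of them between the compared groups. Transcripts of cardiomyocytes were found in wells marked as macrophages too, and how they came there was not tested. For instance, Nexn, a gene of the sarcomere, stood at 438 CPM in the 99 macrophage-marked wells of day 1 and at 1446 CPM in the 66 of day 3, at median depths of 304511 and 374776 counts. Ventricular markers were abundant in both groups, with 0 of the 16 at 0: their sum was 116184 CPM (40723 to 155781 over wells) in day 1 Ino80-high wells and 145837 CPM (88682 to 177515) in day 3 Ino80-low wells. The label of cardiomyocyte material is therefore matched by markers, which do not by themselves type each well.

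Ino80, which chose the wells, was set apart by that choice, and Esr1 and Gt(ROSA)26Sor had the widest ratios among the other named genes. Ino80 had a lowest, median and highest value of 1016, 2557 and 11299 CPM in the day 1 Ino80-high wells, against 0, 15.8 and 98.7 CPM in the day 3 Ino80-low wells. The well just outside the limit had 996 CPM on day 1 and 104 CPM on day 3. Pooled over wells, Ino80 was at 2927 CPM (95% interval 2919 to 2934) in day 1 Ino80-high wells, at 3045 CPM in day 3 Ino80-high wells and at 18.3 CPM (17.7 to 18.9) in day 3 Ino80-low wells. Macrophage-marked wells, which were not split by Ino80, had Ino80 at 2317 CPM on day 1 and 702 CPM on day 3. The gene (ENSMUSG00000034154.15) lies on the minus strand at chr2:119373042-119477687 in mm10, and a count per gene cannot separate a transgene from the native locus. Intervals here and below are exact Poisson intervals for CPM and exact intervals from the binomial split of counts for ratios. They cover counting error only, and PCR copies without molecular identifiers do not count as separate molecules.

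Esr1 encodes estrogen receptor alpha. MerCreMer carries mutated hormone-binding domains of this receptor, and a count per gene cannot separate the fusion from Esr1 itself. It had a lowest, median and highest value of 0, 385 and 2319 CPM in day 1 Ino80-high wells, against 0, 0 and 34.1 CPM in day 3 Ino80-low wells. Pooled, it stood at 459 CPM in day 1 Ino80-high wells, 95.1 CPM in day 3 Ino80-high wells and 0.80 CPM in day 3 Ino80-low wells, a log2 ratio of day 1 Ino80-high over day 3 Ino80-low of 9.16 (8.92 to 9.41). Macrophage-marked wells had Esr1 at 291 CPM on day 1 and 29.3 CPM on day 3. The lower quartile of day 1 wells (201 CPM) thus lay above the highest day 3 Ino80-low well, while day 3 Ino80-high wells spread over both ranges. Gt(ROSA)26Sor, the noncoding RNA of the Rosa26 locus, was at 85.6 CPM in day 1 Ino80-high wells, 33.3 CPM in day 3 Ino80-high wells and 1.35 CPM in day 3 Ino80-low wells. Its exons overlap Thumpd3 on the opposite strand, and the strand setting of the counting is not stated in the labels. The added EGFP sequence had 389 counts in 50 of 838 day 1 Ino80-high wells (5.97%, exact Clopper-Pearson 95% interval 4.46 to 7.79) and 526 counts in 42 of 433 day 3 Ino80-high wells, against 4 counts in 4 of 458 day 3 Ino80-low wells (0.873%, 0.239 to 2.22). The added 3xFlag sequence had 12 counts in day 1 Ino80-high wells, 15 in day 3 Ino80-high wells and 8 in day 3 Ino80-low wells, too few to set the groups apart.

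**Figure D1:**
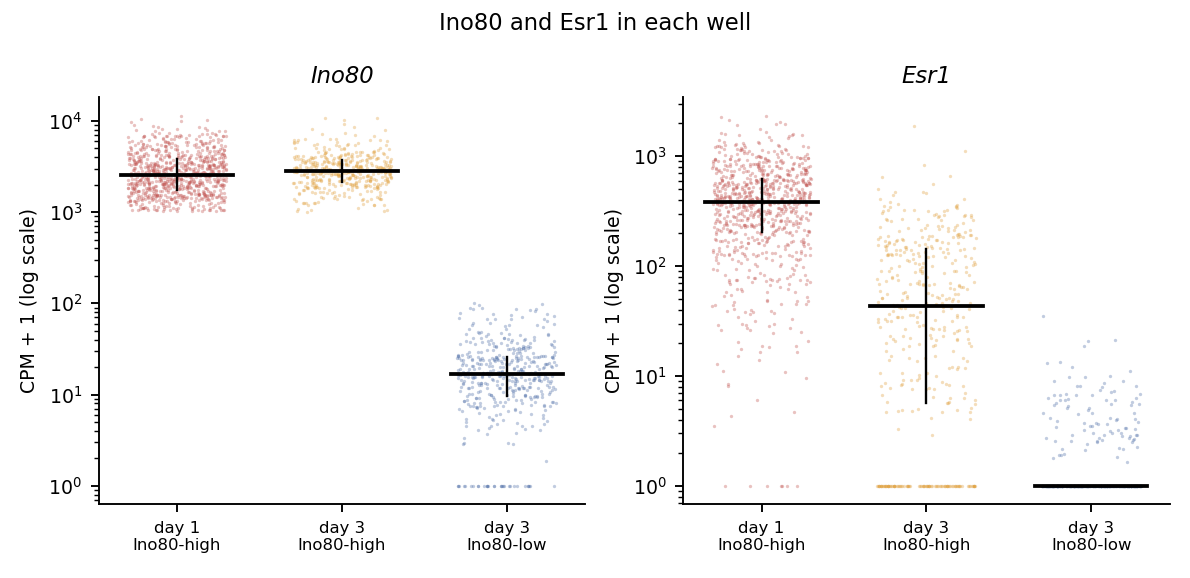
Ino80 (left) and Esr1 (right) in each well, as CPM + 1 on a log axis, for day 1 Ino80-high, day 3 Ino80-high and day 3 Ino80-low wells; each point is a well, the horizontal bar the median and the vertical bar the quartiles. The gap in Ino80 was set by the choice of wells, with medians of 2557, 2826 and 15.8 CPM; Esr1 has a median of 385 CPM on day 1, 42.3 CPM in day 3 Ino80-high wells and 0 in day 3 Ino80-low wells.

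Across the genome more genes were higher than lower in the day 1 Ino80-high wells. Of 6047 genes with a mean of at least 10 CPM over the groups, 792 (13.1%) had a level 2-fold or more above that of the day 3 Ino80-low wells and 219 (3.62%) a level 2-fold or more below it, and 97 and 26 genes were past 4-fold. The median gene stood at a log2 ratio of 0.27. That split rested on the scaling: of the genes past 2-fold, 78.3% were higher, against 37.2% with mitochondrial counts in the total (235 higher, 396 lower, median gene at -0.13) and 52.7% with size factors from medians of ratios (434 higher, 390 lower, median gene at -0.01). Among the 114 day 1 and 84 day 3 wells with 25 to 35% mitochondrial counts, 1034 genes were higher and 844 lower. Gene lists are therefore described by medians relative to the all-gene median, that of every gene with a mean of at least 5 CPM, since a change of scaling moves both by the same amount for a fixed set of genes. Relative medians still moved a little with the scaling, since the set of genes above the minimum level changes with it. The median gene also depended on level, at 0.37 with a minimum of 1 CPM and 0.12 with 50 CPM. Lists of abundant genes are thus set against a median drawn mostly from weaker genes. Of all 7982 genes with a mean of at least 5 CPM, 16.6% were at least 2-fold higher and 3.82% lower, the shares for reading counts in lists. Scaling shifted the median gene by up to 0.40 on the log2 scale, so no direction is read from single genes with ratios of about that size or smaller.

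The 30 named genes were the 15 with the highest and the 15 with the lowest log2 ratio after adding 5 CPM to each level, under limits on level, on the share of wells and on counts from a single well. Of the 18 alternatives, 14 were neither used by that rule nor unable to change a ratio. Under these, the 29 named genes other than Ino80 kept their direction and 28 stayed past 2-fold. Resf1 did not, at 0.90 in wells with 25 to 35% mitochondrial counts. Sizes moved more than directions. The kept directions were in part fixed in advance, since these genes were picked as extremes of the same wells. The named ratio nearest to 0 was -2.05 (AC119982.1), so the changes of scaling could not reverse any. The cap of 25% of counts from a single well likewise limited what leaving out the top well could do.

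Next to the induction system, the genes farthest above the day 3 Ino80-low wells included genes of stress responses and NAD metabolism. Nmrk2, a nicotinamide riboside kinase of the NAD salvage pathway that is found in striated muscle, had a lowest, median and highest value of 0, 140 and 2682 CPM in day 1 Ino80-high wells, against 0, 2.68 and 424 CPM in day 3 Ino80-low wells. Pooled, Nmrk2 was at 258 CPM on day 1, 419 CPM in day 3 Ino80-high wells and 13.55 CPM in day 3 Ino80-low wells, a log2 ratio of 4.25 (4.19 to 4.31) for the compared pair. Most day 1 wells were high, but the ranges overlapped, as they did for every named gene except Ino80. Nr4a2, an orphan nuclear receptor of the immediate early class, had a median of 1.37 CPM (0 to 1002) in day 1 Ino80-high wells and of 0 (0 to 256) in day 3 Ino80-low wells. Pooled, it was at 62.7 CPM on day 1, 24.9 CPM in day 3 Ino80-high wells and 1.16 CPM in day 3 Ino80-low wells (log2 ratio 5.76, 5.56 to 5.97), so its level came from a part of the day 1 wells.

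Cdkn1a, the cyclin-dependent kinase inhibitor p21 and a p53 target, had a median of 416 CPM (0 to 2803) in day 1 Ino80-high wells and of 16.0 CPM (0 to 7303) in day 3 Ino80-low wells. The pooled levels were 499 CPM on day 1, 1202 CPM in day 3 Ino80-high wells and 53.7 CPM in day 3 Ino80-low wells, and the log2 ratio of day 1 Ino80-high over day 3 Ino80-low wells was 3.22 (3.19 to 3.25). Trp53inp1, another p53-induced gene, was at 40.03 CPM in day 1 Ino80-high wells and 3.002 CPM in day 3 Ino80-low wells. Ppp1r15a, the GADD34 subunit that directs a phosphatase to eIF2 alpha and so ends the integrated stress response, was at 42.2 CPM on day 1, 155 CPM in day 3 Ino80-high wells and 4.71 CPM in day 3 Ino80-low wells. Impact, whose product restrains the eIF2 alpha kinase Gcn2, was at 60.5 CPM in day 1 Ino80-high wells and 8.43 CPM in day 3 Ino80-low wells. Both of these touch the same translational control step, and Ppp1r15a had a log2 ratio of 1.43 in wells with 25 to 35% mitochondrial counts, against 3.16 over all wells. The median over day 1 wells was 0 for Trp53inp1 and Ppp1r15a and 3.68 CPM for Impact. Their pooled levels on day 1 thus came from a part of the wells.

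Igfbp5, which binds insulin-like growth factors outside the cell, was high on day 1 and near the day 3 Ino80-low level in the day 3 Ino80-high wells. Its median was 121 CPM (0 to 3896) in day 1 Ino80-high wells and 0 (0 to 1772) in day 3 Ino80-low wells. Pooled, it stood at 261 CPM on day 1, 56.6 CPM in day 3 Ino80-high wells and 41.4 CPM in day 3 Ino80-low wells, a log2 ratio of 2.66 (2.62 to 2.69), or 1.45 in wells with 25 to 35% mitochondrial counts. Scd2, a stearoyl-CoA desaturase, was at 47.0 CPM on day 1, 12.9 CPM in day 3 Ino80-high wells and 6.03 CPM in day 3 Ino80-low wells. Zfp346, a zinc finger protein that binds double-stranded RNA, was at 47.9 CPM on day 1, 12.5 CPM in day 3 Ino80-high wells and 3.82 CPM in day 3 Ino80-low wells. Scd2 and Zfp346 each had a median of 0 over day 1 wells, with a count in 46.5% and 40.7% of them. The rest of this side were Resf1, a silencer of endogenous retroviruses (log2 ratio 2.44), Timp4, the cardiac tissue inhibitor of metalloproteinases (2.41), and the long noncoding RNA AC122252.2 (3.74). Timp4 and Scd2 share exons with Syn2 on the opposite strand and with Mir5114 on the same strand, and Nmrk2, Cdkn1a, Zfp346 and Ppp1r15a also have a partner on the opposite strand, so reads of the partners cannot be told apart.

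The named genes on the lower side included genes of the contractile cell, of its junctions, its calcium handling and its sarcomere. Fhl2, which encodes a LIM-only protein found at the sarcomere, had a lowest, median and highest value of 0, 15.8 and 1584 CPM in day 1 Ino80-high wells, against 0, 510 and 1572 CPM in day 3 Ino80-low wells. Pooled, Fhl2 was at 68.45 CPM on day 1, 93.8 CPM in day 3 Ino80-high wells and 521 CPM in day 3 Ino80-low wells, a log2 ratio of -2.93 (-2.96 to -2.90). Pln, phospholamban, the inhibitor of the calcium pump of the sarcoplasmic reticulum, had a median of 52.2 CPM (0 to 1435) in day 1 Ino80-high wells and of 505 CPM (0 to 1976) in day 3 Ino80-low wells. Pooled, Pln was at 93.3 CPM on day 1, 31.1 CPM in day 3 Ino80-high wells and 554 CPM in day 3 Ino80-low wells (-2.57, -2.59 to -2.55). For both genes the upper quartile of day 1 wells (93.1 CPM for Fhl2 and 106 CPM for Pln) lay below the lower quartile of day 3 Ino80-low wells, which was 374 CPM for Fhl2 and 329.6 CPM for Pln.

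At the intercalated disc, Gja1, the ventricular gap junction protein connexin 43, had a median of 0 (0 to 1033) in day 1 Ino80-high wells and of 131 CPM (0 to 1548) in day 3 Ino80-low wells. Its pooled level was 26.9 CPM on day 1, 45.75 CPM in day 3 Ino80-high wells and 210 CPM in day 3 Ino80-low wells, a log2 ratio of -2.96. Cdh2, N-cadherin, the adhesion molecule of the disc, was at 12.7 CPM on day 1, 71.7 CPM in day 3 Ino80-high wells and 100.4 CPM in day 3 Ino80-low wells. The log2 ratio to the day 3 Ino80-low wells was thus -2.98 for day 1 Ino80-high and -0.49 for day 3 Ino80-high wells.

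Slc8a1, the sodium-calcium exchanger that removes calcium from the cell, was at 42.7 CPM on day 1, 80.2 CPM in day 3 Ino80-high wells and 230.2 CPM in day 3 Ino80-low wells (-2.43, -2.47 to -2.40). Nexn, nexilin, an actin-binding protein of the sarcomere and the junctional membrane, was at 521 CPM on day 1, 684 CPM in day 3 Ino80-high wells and 2298 CPM in day 3 Ino80-low wells. Its median over wells was 359 CPM (0 to 5273) in day 1 Ino80-high wells and 2234 CPM (0 to 6762) in day 3 Ino80-low wells. Mylk4, a myosin light chain kinase family member, and Fhod3, a formin of cardiac actin filaments, had log2 ratios of -2.42 and -2.22. Gpr22, an orphan G protein-coupled receptor, was at 12.55 CPM on day 1, 1.596 CPM in day 3 Ino80-high wells and 108 CPM in day 3 Ino80-low wells. Tfrc, the transferrin receptor for iron uptake, was at 11.2 CPM on day 1, 33.3 CPM in day 3 Ino80-high wells and 84.8 CPM in day 3 Ino80-low wells. Fgf13, which modulates sodium channels (-2.82), Yipf7, a Golgi membrane protein (-2.85), Fbxw7, a ubiquitin ligase subunit (-2.28), and the long noncoding RNA AC119982.1 (-2.05) were also on this side. Pln, Slc8a1 and Fhod3 have partners on the opposite strand and Nexn has one on the same strand, as given by the annotation. In macrophage-marked wells, which were not split by Ino80, Fhl2 and Pln were lower on day 1 too: Fhl2 was at 53.5 CPM on day 1 and 378 CPM on day 3, and Pln at 87.6 CPM on day 1 and 244 CPM on day 3. Mylk4 was not lower in those wells, at 41.8 CPM on day 1 and 37.9 CPM on day 3. Genes of the higher side were also found there. Cdkn1a was at 639 CPM on day 1 and 388 CPM on day 3, and Ppp1r15a at 317 and 152 CPM. Nmrk2 was at 215 CPM on day 1 and 121 CPM on day 3, and Igfbp5 at 276 and 45.95 CPM. AC122252.2 went the other way, at 54.6 CPM on day 1 and 77.7 CPM on day 3. The part that RNA shared among wells of a library has in these differences was not tested.

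Several of these ratios moved by more than 1.5 times with the wells used. In wells with 25 to 35% mitochondrial counts the log2 ratio was farther from 0 for Gja1 (-4.18), Cdh2 (-4.38), Fhod3 (-4.03), Fbxw7 (-3.54) and Tfrc (-3.60), and for Nr4a2 (6.52) and Zfp346 (4.93). It was nearer to 0 there for AC122252.2 (2.87) and Impact (2.01). With wells weighted equally, Nr4a2 stood at 4.97 and Cdkn1a at 2.52. Thinned to 30000 counts, Zfp346 stood at 4.33. Timp4 stood at 1.68 with the endothelial sum under 100 CPM, and Fgf13 at -3.87 with the macrophage, fibroblast and endothelial sums each under 100 CPM.

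**Figure D2:**
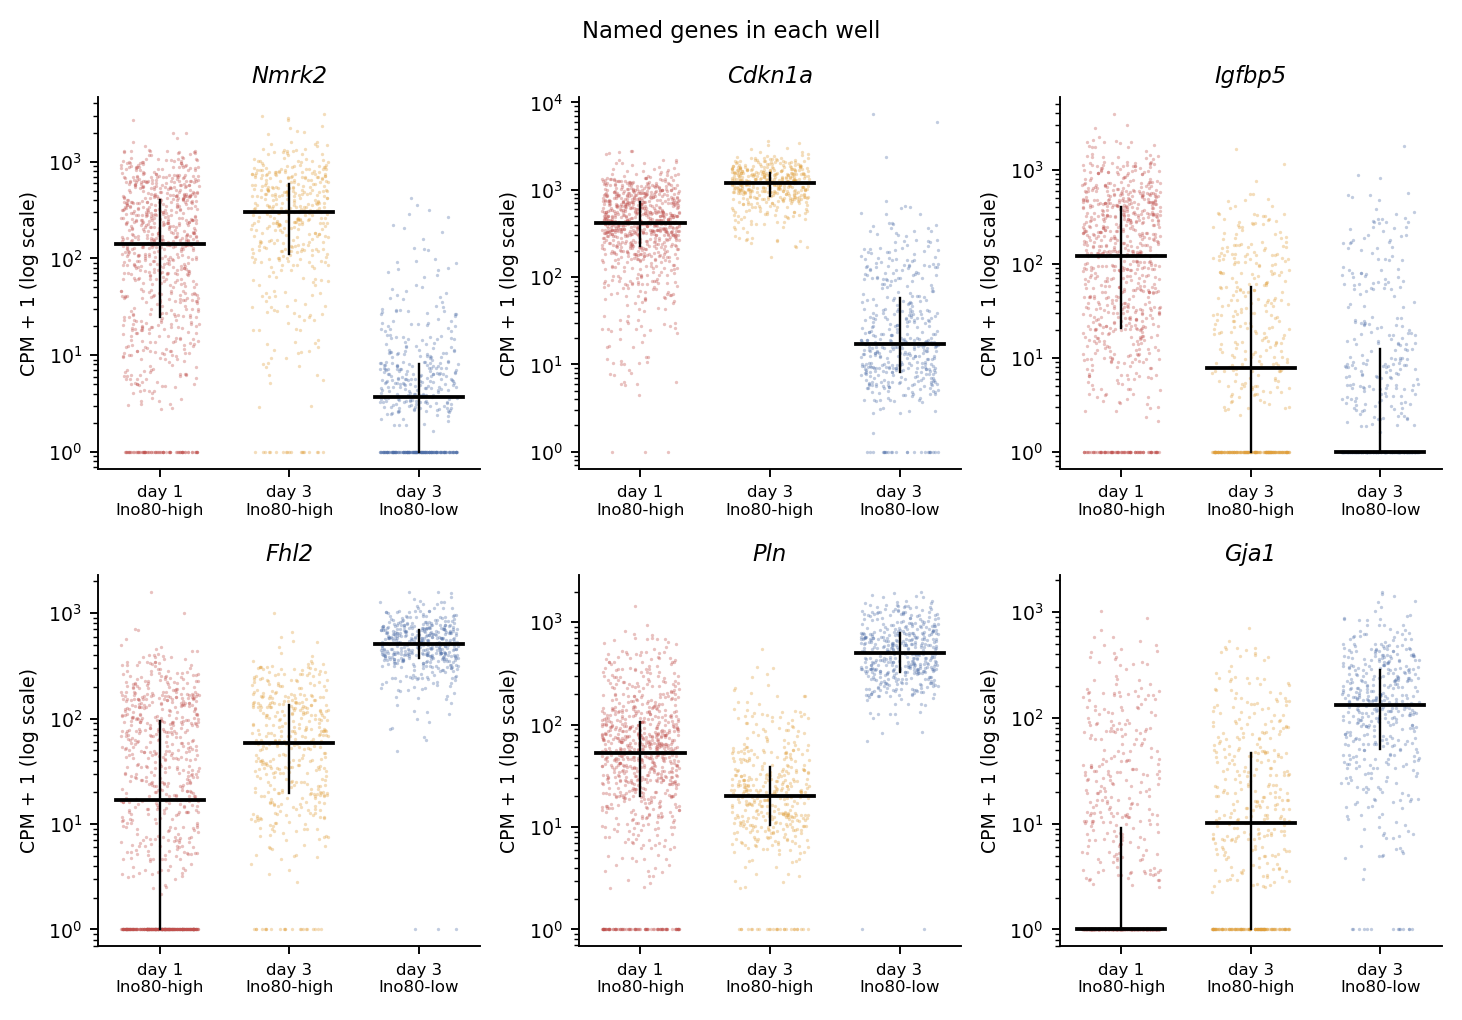
Nmrk2, Cdkn1a, Igfbp5, Fhl2, Pln and Gja1 in each well, as CPM + 1 on a log axis, for day 1 Ino80-high, day 3 Ino80-high and day 3 Ino80-low wells; each point is a well, the horizontal bar the median and the vertical bar the quartiles. Day 1 medians are 140, 416 and 121 CPM for the upper genes and 15.8, 52.2 and 0 CPM for the lower ones, against 2.68, 16.0 and 0 CPM and 510, 505 and 131 CPM in day 3 Ino80-low wells.

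**Figure D3:**
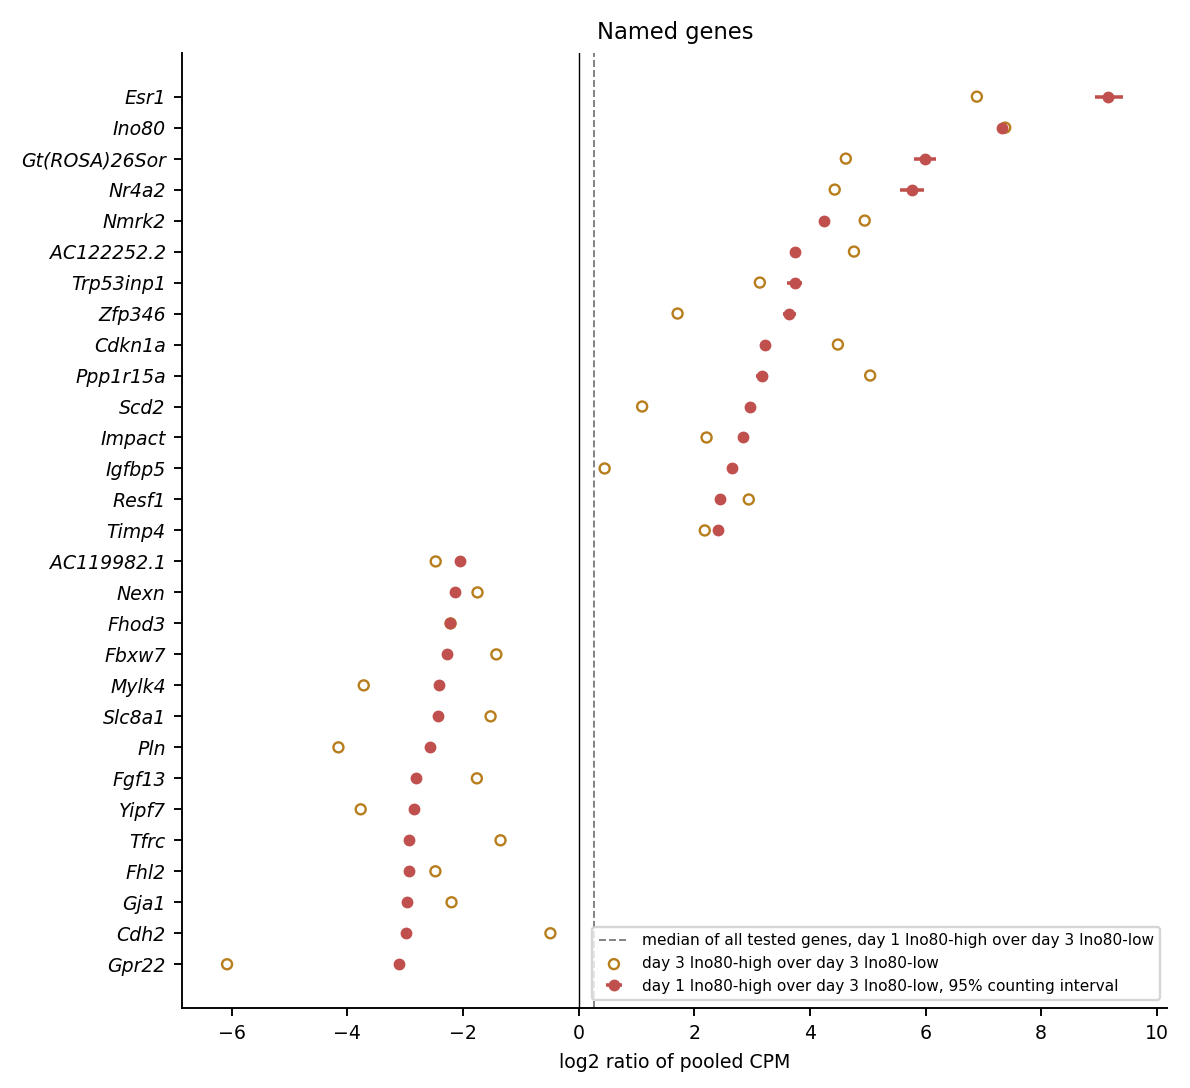
Log2 ratio of pooled CPM of 29 of the 30 named genes, for day 1 Ino80-high over day 3 Ino80-low wells (filled, with 95% counting intervals) and for day 3 Ino80-high over day 3 Ino80-low wells (open); the dashed line is the median of all tested genes at 0.27. Both ratios share the day 3 Ino80-low wells, so they are not independent, and they lie far apart for Igfbp5 (2.66 and 0.45), Cdh2 (-2.98 and -0.49) and Gpr22 (-3.10 and -6.08).

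The promoters of genes from each side are shown for the sequence around their transcription start, 250 bases before to 50 after it, from the RefSeq table on GRCm38.p6, 5′ to 3′ on the strand of the gene. They are Nmrk2 (chr10:81201988-81202287, minus strand) and Ppp1r15a (chr7:45526219-45526518, minus strand) from the higher side, and Fhl2 (chr1:43196712-43197011, minus strand) and Pln (chr10:53337436-53337735, plus strand) from the lower side. Capitals mark TATAAA on either strand (TTTATA where it is on the other strand) and TGACGTCA, the cyclic AMP response element, which reads the same on both strands.
Nmrk2: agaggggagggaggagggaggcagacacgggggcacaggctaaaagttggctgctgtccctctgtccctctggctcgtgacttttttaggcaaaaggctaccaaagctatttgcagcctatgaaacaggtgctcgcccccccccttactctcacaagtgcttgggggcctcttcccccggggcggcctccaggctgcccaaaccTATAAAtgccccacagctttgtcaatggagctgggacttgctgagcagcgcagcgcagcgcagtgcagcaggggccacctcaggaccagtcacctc
Ppp1r15a: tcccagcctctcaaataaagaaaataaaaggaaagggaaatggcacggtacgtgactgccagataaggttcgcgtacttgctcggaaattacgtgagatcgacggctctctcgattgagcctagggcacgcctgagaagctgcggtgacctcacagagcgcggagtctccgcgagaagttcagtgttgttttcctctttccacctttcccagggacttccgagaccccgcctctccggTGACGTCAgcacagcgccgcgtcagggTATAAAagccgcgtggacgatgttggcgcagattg
Fhl2: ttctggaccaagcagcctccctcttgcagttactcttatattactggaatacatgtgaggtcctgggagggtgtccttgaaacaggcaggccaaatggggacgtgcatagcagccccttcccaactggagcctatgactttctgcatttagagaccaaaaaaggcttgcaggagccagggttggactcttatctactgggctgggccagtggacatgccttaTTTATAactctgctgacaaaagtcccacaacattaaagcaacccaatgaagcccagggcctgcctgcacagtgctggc
Pln: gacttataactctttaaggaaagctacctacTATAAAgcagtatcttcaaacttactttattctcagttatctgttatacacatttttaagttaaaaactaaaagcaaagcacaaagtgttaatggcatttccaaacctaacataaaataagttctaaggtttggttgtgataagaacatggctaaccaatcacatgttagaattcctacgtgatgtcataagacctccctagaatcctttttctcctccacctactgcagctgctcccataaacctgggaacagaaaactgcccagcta
These 4 were picked because they hold TATAAA, after values and letters were seen. Of the 19 promoters of named genes read from the table, 7 hold TATAAA, those of Cdkn1a, Gja1 and Slc8a1 among others do not, and 1 holds TGACGTCA. Of all 27025 promoters in the table, 14.2% hold TATAAA and 1.88% hold TGACGTCA. The letters are a description, not shown binding.

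Calcium cycling genes and cardiac transcription factors had the lowest medians among the gene lists, with cardiac transcription factors the lower of the pair in 6 of 18 alternatives. Among the 18, the minimums of 50 CPM and 1 CPM cannot move a list median. For calcium cycling the values were as follows. Of 21 measured members, 16 lay below the all-gene median, and the median of the list was -0.92 relative to it, or -1.45 in wells with 25 to 35% mitochondrial counts. At least 2-fold lower were 8 members and 1 was at least 2-fold higher, where 3.82% and 16.6% of all 7982 genes with a mean of at least 5 CPM were. Beside Pln and Slc8a1, these were Asph, the gene of junctin, at 82.4 CPM in day 1 Ino80-high wells and 279 CPM in day 3 Ino80-low wells. Trdn, triadin, a partner of the release channel, was at 663 CPM on day 1 and 1667 CPM in Ino80-low wells. Hrc, the histidine-rich calcium binding protein of the reticulum, was at 2593 CPM on day 1 and 5760 CPM in Ino80-low wells. Asph, Trdn and Hrc products sit together at the release channel of the reticulum. Camk2d, the cardiac calcium-calmodulin kinase, was at 24.8 CPM on day 1 and 73.4 CPM in day 3 Ino80-low wells, and the L-type channel genes Cacna1c and Cacnb2 had log2 ratios of -1.55 and -1.90. The calcium pump Atp2a2 was at 4705 CPM in day 1 Ino80-high wells, 1836 CPM in day 3 Ino80-high wells and 8620 CPM in day 3 Ino80-low wells. The release channel Ryr2 was at 1104 CPM on day 1, 431 CPM in day 3 Ino80-high wells and 1685 CPM in Ino80-low wells. Sln, sarcolipin, the atrial inhibitor of the pump, was the exception, at 2342 CPM in day 1 Ino80-high wells and 603 CPM in day 3 Ino80-low wells, and 7.90% of the day 1 counts of this gene lay in 1 well.

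Cardiac transcription factors had 20 of 22 members below the all-gene median and a list median of -0.84 relative to it. None was at least 2-fold higher and 6 were at least 2-fold lower. Mef2c, a master regulator of cardiac muscle genes, was at 39.8 CPM in day 1 Ino80-high wells, 37.97 CPM in day 3 Ino80-high wells and 131 CPM in day 3 Ino80-low wells. Prox1 was at 18.1 CPM on day 1 and 63.3 CPM in day 3 Ino80-low wells. Tbx20 was at 9.19 CPM on day 1 and 25.4 CPM in Ino80-low wells. Mef2a, at 104 CPM on day 1 and 208 CPM in Ino80-low wells, and Tead1, at 43.4 CPM on day 1 and 86.1 CPM in Ino80-low wells, lay just inside 2-fold. Nkx2-5, the early cardiac homeobox factor, was at 25.4 CPM on day 1 and 20.2 CPM in day 3 Ino80-low wells, too close to read a direction.

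Structural genes were mostly below the all-gene median. Of 29 sarcomere genes 26 lay below it (median -0.45 relative). Past 2-fold on the lower side were 4 (13.8%, against 3.82% of all genes): Csrp3, Actc1, Cavin4 and Pdlim5. Csrp3, muscle LIM protein, was at 1298 CPM in day 1 Ino80-high wells, 5777 CPM in day 3 Ino80-high wells and 3941 CPM in day 3 Ino80-low wells. Actc1, cardiac actin, was at 5235 CPM on day 1 and 11650 CPM in day 3 Ino80-low wells. Thick filament and troponin genes differed less. Myh6, the adult alpha myosin heavy chain, was at 13152 CPM on day 1 and 16205 CPM in Ino80-low wells. Tnni3, cardiac troponin I, was at 18936 CPM on day 1 and 18196 CPM in Ino80-low wells. Mybpc3, cardiac myosin binding protein C, was at 2553 CPM on day 1 and 1942 CPM in Ino80-low wells. Of 19 intercalated disc genes 15 lay below the all-gene median (-0.41 relative). At least 2-fold lower were 5 (26.3%, against 3.82% of all genes), and at least 2-fold higher 2 (10.5%, under the 16.6% of all genes). Beside Gja1, Cdh2, Fhl2 and Csrp3, the lower ones included Pkp2, plakophilin 2, at 42.8 CPM on day 1 and 126 CPM in Ino80-low wells. The higher ones were Jup, plakoglobin (log2 ratio 1.13), and Xirp1 (1.27). Of 20 ion channel and pump genes (median -0.38 relative) 4 (20%, against 3.82% of all genes) were 2-fold lower, among them Kcnd2, Kcnd3 and Kcnj3. Another 4 (20%, near the 16.6% of all genes) were 2-fold higher, among them Kcna5, Kcnh2 and Scn4b. Kcnd2, of the transient outward potassium current, was at 10.45 CPM on day 1, 2.55 CPM in day 3 Ino80-high wells and 42.7 CPM in day 3 Ino80-low wells. Kcna5, of the ultrarapid current, was at 25.9 CPM on day 1, 4.23 CPM in day 3 Ino80-high wells and 3.48 CPM in day 3 Ino80-low wells. The calcineurin and hypertrophic signalling list stood at -0.31 relative to all genes, with 5 of 23 members (21.7%) at least 2-fold lower and 2 (8.70%) higher. Its receptors for catecholamines and angiotensin were among the lower. Adrb1 was at 6.93 CPM on day 1 and 24.6 CPM in day 3 Ino80-low wells. Adra1b was at 9.57 CPM on day 1 and 23.5 CPM in Ino80-low wells. Agtr1a was at 9.81 CPM on day 1 and 24.7 CPM in Ino80-low wells.

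Nuclear genes of oxidative phosphorylation, the TCA cycle and fatty acid use lay mostly below the all-gene median, by a small amount. Their list medians by the ratio itself were -0.21, -0.16 and -0.17, within the shift that scaling made. All 64 measured nuclear genes of oxidative phosphorylation lay below the all-gene median, at a list median of -0.52 relative to it, but 0 were past 2-fold either way. By the ratio itself 59 were lower and 5 higher on day 1. These genes are abundant, and the median gene stood at 0.12 with a minimum of 50 CPM. Part of the -0.52 thus rests on the weaker genes of the reference. Ndufs4, a complex I subunit, was at 579 CPM in day 1 Ino80-high wells and 890.1 CPM in day 3 Ino80-low wells. Cycs, cytochrome c, was at 3208 CPM on day 1 and 4646 CPM in Ino80-low wells. Cox8b, a complex IV subunit, stood at 10222 CPM on day 1 and 8526 CPM in Ino80-low wells. The mitochondrial share differed between the groups beside this list, and in wells with 25 to 35% mitochondrial counts its relative median was -0.10. Of the TCA cycle 18 of 19 genes (-0.47) and of fatty acid uptake and oxidation 24 of 27 genes (-0.48) lay below the all-gene median, and in the same narrow range of mitochondrial share these medians were -0.32 and -0.38. Lpl, lipoprotein lipase, was at 4680 CPM on day 1 and 8306 CPM in Ino80-low wells. Ppargc1a, a coactivator of mitochondrial genes, was at 53.7 CPM on day 1 and 99.4 CPM in Ino80-low wells. Its relative Ppargc1b was at 12.1 CPM on day 1 and 39.5 CPM in Ino80-low wells. The part of the mitochondrial share in these differences was not tested. Ppargc1b was the single member past 2-fold in the lists of oxidative phosphorylation, the TCA cycle and fatty acid use. Glycolysis and pyruvate entry genes were at -0.25 relative, but 12 of 22 were higher on day 1 by the ratio itself. PPAR targets and ketone genes were at -0.08 relative, with 12 of 19 higher by the ratio itself. Other lists also moved in wells with 25 to 35% mitochondrial counts: the intercalated disc list was at -1.03, the calcineurin and hypertrophic signalling list at -0.72, the atrial list at 2.15 and the fibroblast list at 1.39 relative to all genes. Mitochondrially encoded genes, scaled on all mouse counts, were higher on day 1 for 10 of 10 measured members, with a median log2 ratio of 0.57. The ribosomal RNA mt-Rnr2 had the largest ratio among them, at 1.46, and mt-Nd2 the smallest, at 0.32.

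Fetal and stress genes did not differ alike. Of 23 measured members 10 were 2-fold or more above the Ino80-low wells and 0 were 2-fold or more below them, with a relative median of 0.20, or 0.66 in wells with macrophage, fibroblast and endothelial sums each under 100 CPM. Myh7, the slow, beta isoform of cardiac myosin heavy chain, was at 347 CPM in day 1 Ino80-high wells, 119 CPM in day 3 Ino80-high wells and 85.7 CPM in day 3 Ino80-low wells (log2 ratio 2.02). Nppa, the atrial natriuretic peptide precursor, was at 128 CPM on day 1, 224 CPM in day 3 Ino80-high wells and 32.9 CPM in day 3 Ino80-low wells. Flnc, filamin C, was at 140 CPM on day 1, 369 CPM in day 3 Ino80-high wells and 54.2 CPM in Ino80-low wells. These 3 genes all exceeded the Ino80-low level on day 1, but Myh7 alone was higher on day 1 than in day 3 Ino80-high wells. Tnnt1, the slow skeletal troponin T, was at 67.9 CPM on day 1, 428 CPM in day 3 Ino80-high wells and 22.5 CPM in Ino80-low wells. Gdf15, a stress cytokine, had 9.24 CPM on day 1, 45.4 CPM in day 3 Ino80-high wells and 1.40 CPM in day 3 Ino80-low wells. Nppb and Ankrd1 were not higher on day 1. Nppb, the B-type natriuretic peptide precursor, stood at 203 CPM on day 1, 1197 CPM in day 3 Ino80-high wells and 216 CPM in day 3 Ino80-low wells. Ankrd1, whose product binds titin and responds to stretch, was at 456 CPM on day 1, 4184 CPM in day 3 Ino80-high wells and 667 CPM in Ino80-low wells.

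Immediate early and NR4A genes were among the highest lists, with 19 of 20 members above the all-gene median (0.75 relative) and 11 at least 2-fold higher. After Nr4a2 came Nr4a3, at 22.3 CPM in day 1 Ino80-high wells and 3.14 CPM in day 3 Ino80-low wells. Klf4, a zinc finger factor, was at 61.3 CPM on day 1 and 15.5 CPM in Ino80-low wells. Atf3 was at 112 CPM on day 1 and 39.0 CPM in Ino80-low wells. These genes encode transcription factors that many stimuli induce without new protein synthesis. Jun was at 117 CPM on day 1 and 52.5 CPM in Ino80-low wells. Fos and Egr1 were closer, Fos at 84.9 CPM on day 1 and 67.2 CPM in Ino80-low wells, and Egr1 at 51.3 CPM on day 1 and 38.3 CPM in Ino80-low wells. Genes that respond to glucocorticoids had 12 of 16 members above the all-gene median (0.63 relative) and 7 at least 2-fold higher, among them Fkbp5, a co-chaperone of the receptor, at 18.9 CPM on day 1 and 3.46 CPM in day 3 Ino80-low wells. Sgk1 was at 56.4 CPM on day 1 and 17.6 CPM in Ino80-low wells. Nfkbia was at 90.3 CPM on day 1 and 27.7 CPM in Ino80-low wells. That list was at 0.22 relative when only wells with macrophage, fibroblast and endothelial sums each under 100 CPM were used (256 day 1 and 268 day 3 wells), while the immediate early list was at 0.69.

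The list of the integrated stress and unfolded protein response had a relative median of 0.12, or -0.31 with mitochondrial counts in the total and -0.36 in wells with 25 to 35% mitochondrial counts. At least 2-fold higher were 5 of 20 members (25%, against 16.6% of all genes): Gdf15, Atf3, Atf5, Ddit3 (57.6 CPM in day 1 Ino80-high wells and 20.6 CPM in day 3 Ino80-low wells) and Atf4 (90.7 CPM on day 1 and 36.8 CPM in Ino80-low wells), the transcription factors of the eIF2 alpha arm and a target. The member at least 2-fold lower was Hspa5, the BiP chaperone of the endoplasmic reticulum, at 668 CPM on day 1, 1529 CPM in day 3 Ino80-high wells and 1441 CPM in day 3 Ino80-low wells. Calr, calreticulin, was at 162 CPM on day 1, 336 CPM in day 3 Ino80-high wells and 283 CPM in Ino80-low wells. Manf was at 19.4 CPM on day 1, 27.2 CPM in day 3 Ino80-high wells and 35.5 CPM in Ino80-low wells. Of 15 p53 targets 4 (26.7%) were at least 2-fold higher, Cdkn1a, Trp53inp1, Plk2 (log2 ratio 1.18) and Btg2 (1.09), and 0 lower, but the list median was -0.11 relative to all genes, or 0.12 in wells thinned to 30000 counts, and Ccng1 and Bax were at log2 ratios of -0.39 and -0.04. Of 20 NRF2 antioxidant genes 4 were at least 2-fold higher, Ftl1, Srxn1, Gclm and Sqstm1, a share of 20% that lies near the 16.6% of all genes. Ftl1, ferritin light chain, was at 311 CPM on day 1, 364 CPM in day 3 Ino80-high wells and 75.1 CPM in day 3 Ino80-low wells. Srxn1, sulfiredoxin, was at 25.8 CPM on day 1, 230.3 CPM in day 3 Ino80-high wells and 6.89 CPM in Ino80-low wells. Nfe2l2 itself stood at 49.1 CPM on day 1, 148 CPM in day 3 Ino80-high wells and 50.5 CPM in day 3 Ino80-low wells. Heat shock and chaperone genes were at 0.01 relative to all genes. Past 2-fold on the higher side were 5 of 20 (25%, against 16.6% of all genes): Hspa1a, Hspa1b, Hsp90aa1, Dnaja1 and Hsf1.

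Interferon-responsive and antigen presentation genes had 10 of 12 measured members above the all-gene median (0.88 relative), and 7 at least 2-fold higher. They included B2m, beta-2 microglobulin, at 210.1 CPM in day 1 Ino80-high wells, 163 CPM in day 3 Ino80-high wells and 59.9 CPM in day 3 Ino80-low wells. Irf9, an interferon-regulated transcription factor, was at 14.5 CPM on day 1, 3.83 CPM in day 3 Ino80-high wells and 4.12 CPM in Ino80-low wells. The classical induced genes Ifit3 and Rsad2 were at log2 ratios of -0.93 and -0.34. Cytoskeletal genes had 19 of 25 members above the all-gene median (0.44 relative) and 9 at least 2-fold higher, such as Vim, vimentin, at 103 CPM on day 1 and 31.4 CPM in day 3 Ino80-low wells. Actb was at 362 CPM on day 1 and 160 CPM in Ino80-low wells. For Vim, 15.6% of the day 1 counts lay in 1 well. As in the other lists, members named besides the 4 farthest ones were picked after their values were seen. The clock list had 6 of 13 members 2-fold higher, and 1 at least 2-fold lower. Cry2, a core repressor, was at 32.4 CPM on day 1 and 9.50 CPM in day 3 Ino80-low wells. Usp2, a clock-controlled protease, was at 223 CPM on day 1 and 83.9 CPM in Ino80-low wells. The lower member was Nr1d2, the repressor REV-ERB beta, at 11.15 CPM on day 1 and 26.8 CPM in Ino80-low wells. Ribosomal protein genes stood 0.14 above the all-gene median, with 42 of 52 members above it and 1, Rpl3, past 2-fold.

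Among the 9 measured subunits of the INO80 complex other than Ino80, 7 lay above the all-gene median, and the median of the 9 was 0.27 relative to it. At least 2-fold higher were 2 of the 9, a share near the 16.6% of all genes, and 0 were 2-fold lower. The 2 were Mcrs1, at 14.2 CPM in day 1 Ino80-high wells and 6.465 CPM in day 3 Ino80-low wells, and Ino80b, at 9.82 CPM on day 1 and 4.725 CPM in Ino80-low wells. Actr8 was at 37.9 CPM on day 1 and 29.7 CPM in Ino80-low wells, and Ruvbl1, an ATPase that other complexes use too, at 13.3 CPM on day 1 and 16.4 CPM in Ino80-low wells. Genes of other chromatin remodellers had a relative median of 0.00, with Chd4 at 229 CPM on day 1 and 99.45 CPM in day 3 Ino80-low wells, and Smarcb1 at 9.75 CPM on day 1 and 22.6 CPM in Ino80-low wells.

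The medians of several lists in day 1 Ino80-high and day 3 Ino80-high wells are given side by side. The fetal and stress list had a relative median of 0.20 in day 1 Ino80-high and 2.31 in day 3 Ino80-high wells, both set against the day 3 Ino80-low wells, the proteasome list 0.08 and 1.22, and the extracellular matrix list -0.01 and 1.39. Both values of a list use the same Ino80-low wells, and the difference between them was not tested. Timp1, a tissue inhibitor of metalloproteinases, was at 6.07 CPM on day 1, 132 CPM in day 3 Ino80-high wells and 6.13 CPM in Ino80-low wells. Ccn2, connective tissue growth factor, was at 18.6 CPM on day 1, 114 CPM in day 3 Ino80-high wells and 16.0 CPM in Ino80-low wells. Lgals3, galectin 3, was at 10.8 CPM on day 1, 257 CPM in day 3 Ino80-high wells and 4.43 CPM in Ino80-low wells. Proteasome subunits were at most modestly higher on day 1, with 0 of 29 past 2-fold: Psma5 was at 95.3 CPM on day 1, 399 CPM in day 3 Ino80-high wells and 69.9 CPM in Ino80-low wells. Axl, a receptor tyrosine kinase and YAP target, was more than 2-fold higher on day 1 than in Ino80-low wells, as was Lgals3. Axl stood at 9.81 CPM on day 1, 16.8 CPM in day 3 Ino80-high wells and 2.36 CPM in Ino80-low wells. Of 12 measured YAP and TGF-beta targets 5 were at least 2-fold higher on day 1 and 0 lower. Of 19 measured extracellular matrix genes 4 were at least 2-fold higher and 2 lower.

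**Figure D4:**
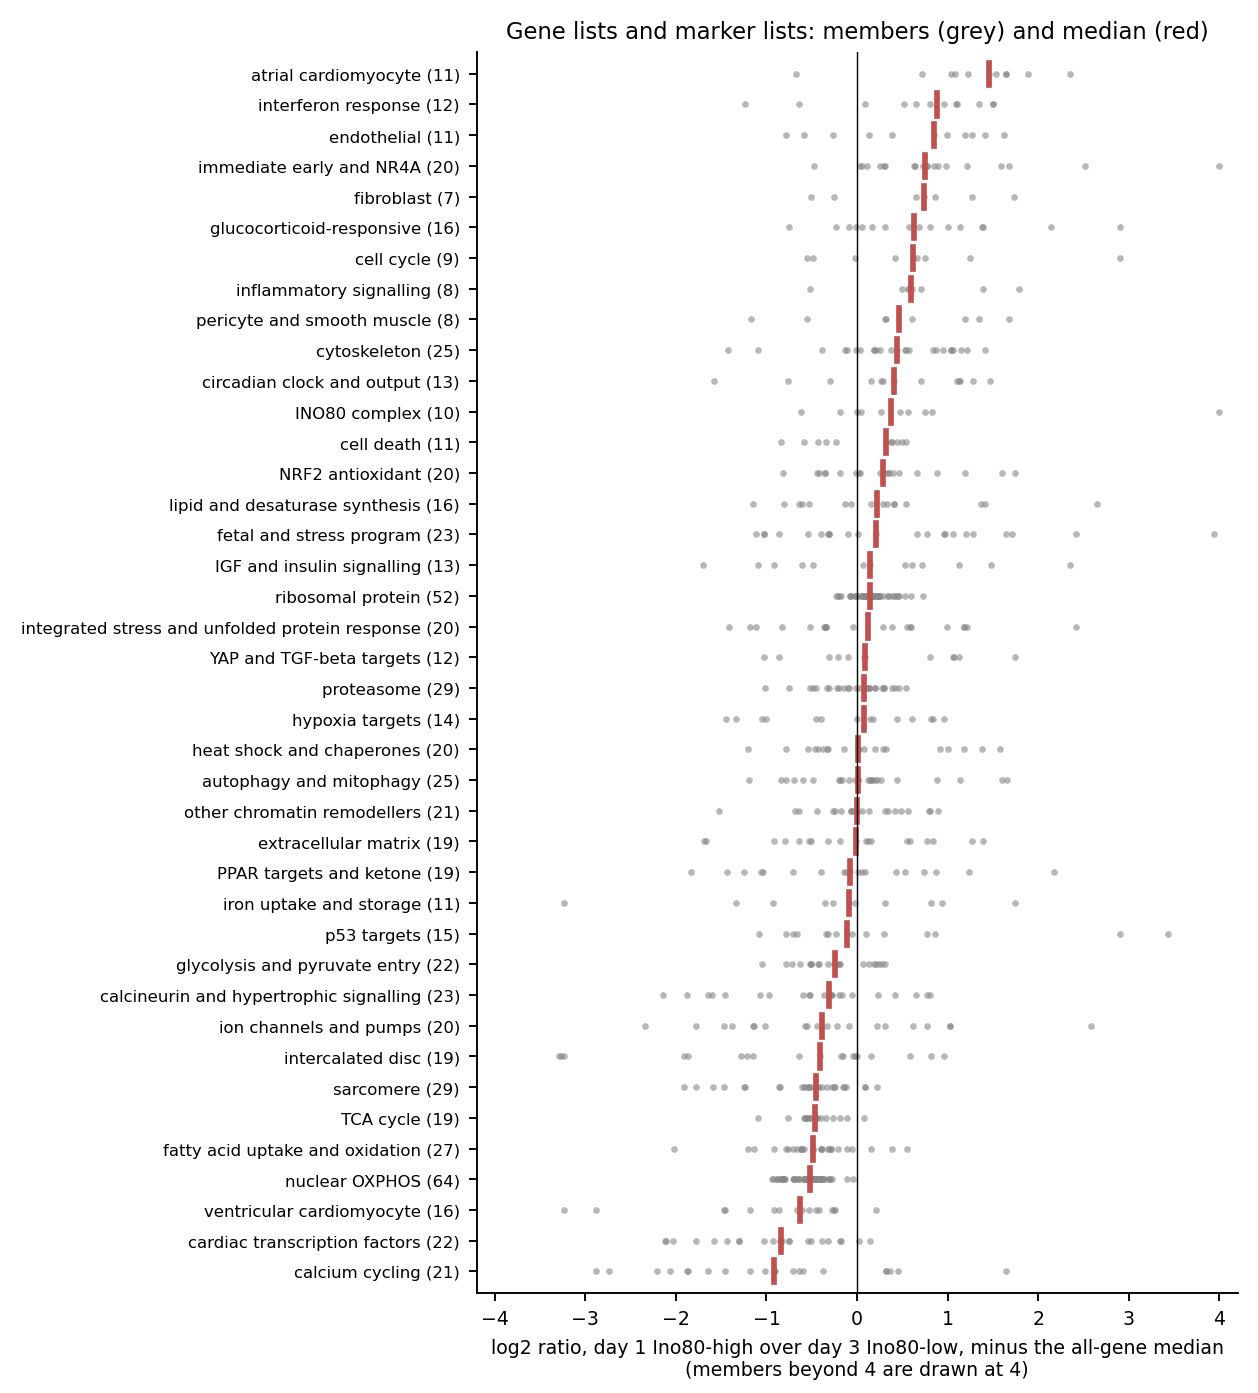
Log2 ratio of day 1 Ino80-high over day 3 Ino80-low wells, minus the all-gene median, for members of each gene list and cell type marker list with at least 5 measured members (grey points, number in brackets) and its median (red bars). Calcium cycling (-0.92) and cardiac transcription factors (-0.84) are at the bottom, and atrial (1.46), interferon (0.88) and endothelial (0.85) lists at the top.

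Markers of atrial cardiomyocytes and of other cell types also differed between the groups. Of 11 measured atrial markers 10 were at least 2-fold higher, with a relative median of 1.46. Their sum over 12 genes had a median of 3633 CPM per well (430.5 to 107674) in day 1 Ino80-high wells and of 2377 CPM (493 to 60783) in day 3 Ino80-low wells, and no atrial marker was at 0 in either. Myl7, the atrial regulatory light chain, was at 1248 CPM on day 1 and 367 CPM in day 3 Ino80-low wells. Bmp10 was at 9.34 CPM on day 1 and 1.48 CPM in Ino80-low wells. By share of wells Bmp10 went the other way, with a count in 16.8% of day 1 wells and 30.6% of Ino80-low wells. In 1 well lay 13.9% of its day 1 counts. Wells with Myl4, Mybphl, Sbk2 and Bmp10 summing to 1000 CPM or more made up 76 of 838 day 1 wells (9.07%, 7.21 to 11.2) and 11 of 458 day 3 Ino80-low wells (2.402%, 1.21 to 4.26). Without them the atrial median was 1.11 relative, and 813 genes were at least 2-fold higher and 245 lower over all genes. The genes of that sum belong to the atrial list, so its fall was in part set by the filter.

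Ventricular markers had 15 of 16 members below the all-gene median (-0.64 relative), with 4 at least 2-fold lower, Fhl2, Pln, Actc1 and Hrc. Endothelial markers had 8 of 11 above it (0.85 relative) and 6 at least 2-fold higher. The summed level of 12 such genes had a median of 683 CPM per well (0 to 13266) in day 1 Ino80-high wells and of 222 CPM (0 to 5107) in day 3 Ino80-low wells, and 0 of them were at 0. Pecam1 was at 35.8 CPM on day 1 and 9.38 CPM in Ino80-low wells. Cdh5, VE-cadherin, was at 41.1 CPM on day 1 and 18.4 CPM in Ino80-low wells. When wells with Pecam1, Cdh5, Tie1 and Egfl7 summing to 100 CPM or more were left out, 512 day 1 and 353 day 3 wells were left. The endothelial median was then -0.01 relative, against 0.85 over all wells. The genes of that sum belong to the endothelial list, so the fall was in part set by the filter. Under the same limit 799 genes were at least 2-fold higher and 242 lower. Pericyte and smooth muscle markers stood at 0.46 relative, with sums of 555 CPM in day 1 Ino80-high wells and 420 CPM in day 3 Ino80-low wells. The median of that sum over wells was 306 CPM on day 1 and 308 CPM in Ino80-low wells, so the pooled gap came from a part of the wells. Of 8 measured members 6 were higher on day 1 and 2, Acta2 and Abcc9, were lower. Fibroblast markers stood at 0.73, with sums at 384.5 CPM on day 1 and 195 CPM in Ino80-low wells, and 0 of 10 at 0. Macrophage markers had sums at 97.6 CPM on day 1 and 37.3 CPM in Ino80-low wells, and erythroid markers at 902.5 CPM on day 1 and 375.5 CPM in Ino80-low wells, where a single day 1 well reached 129261 CPM. The erythroid median over wells was 12.15 CPM on day 1 and 14.23 CPM in Ino80-low wells, so the pooled gap came from few wells. Lymphocyte markers had sums at 60.6 CPM on day 1, with Cd79a at 0, and 2.295 CPM in Ino80-low wells, with Cd3g and Trbc2 at 0. Their median over wells was 0 in both groups, and the highest day 1 well reached 10689 CPM. For Ccl5, 68.8% of the day 1 counts lay in 1 well. With macrophage, fibroblast and endothelial sums each under 100 CPM, limits chosen after the data were seen, 947 genes were 2-fold higher and 274 lower, calcium cycling was at -0.78, cardiac transcription factors at -0.85 and the interferon list at 1.10 relative to all genes. The part of these other cell types in the differences was not tested, and fewer cells of a type and less of its RNA per well cannot be told apart.

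Genes that were lower in day 1 Ino80-high wells spanned more of the genome. The median span from start to end, introns included, was 22754 bases for the 792 genes at least 2-fold higher, 68592 bases for the 219 at least 2-fold lower and 24033 bases for all 6047. Of the quintile of these genes with the longest span (70824 bases or more), 8.93% were at least 2-fold lower (108 of 1210), against 1.49 to 2.89% of the other quintiles, whereas 9.67% of that quintile were 2-fold higher, against 13.3 to 14.97% of the others. Exonic length, which the counts cover, separated them less, with medians of 4677 bases for genes 2-fold higher, 4795 for genes 2-fold lower and 4471 for all 6047. Among the lower genes with a long span were Fgf13, at chrX:59062145-59568071, and Slc8a1, at chr17:81373105-81738377. The median log2 ratio of day 1 Ino80-high over day 3 Ino80-low wells was 0.14 in the longest quintile and 0.21 to 0.34 in the others. Relative to the median of all tested genes the longest quintile stood at -0.13. These medians lie within the shift that scaling made, so no direction is read for the typical gene of long span. In day 3 Ino80-high wells, set against the same day 3 Ino80-low wells, the longest quintile had a median log2 ratio of -0.21 and the other quintiles 0.17 to 0.26.

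**Figure D5:**
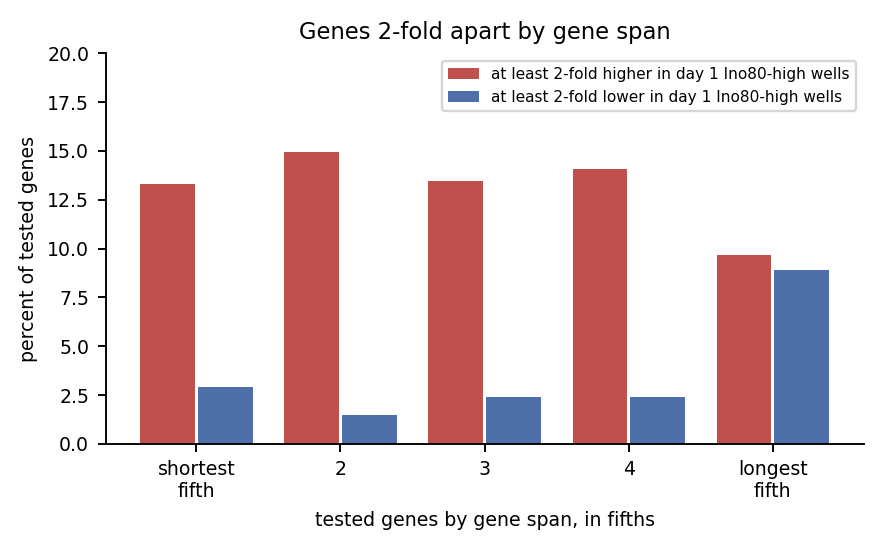
Percent of tested genes at least 2-fold higher (left bar) and 2-fold lower (right bar) in day 1 Ino80-high than in day 3 Ino80-low wells, by quintiles of gene span. The share of lower genes is 8.93% in the longest quintile and between 1.49% and 2.89% in the others.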

How the data were processed

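The deposited tables hold raw counts of reads per gene and well, whole numbers with no normalization by the authors; the build mm10 and the programs cutadapt, STAR and featureCounts come from the submitters' processing notes, with no version, strand setting or treatment of duplicates given in the sources used here. Per the labels' protocols, wells of the iCELL8 platform were imaged, and those positive for Hoechst and negative for propidium iodide were taken. Of 55401 mouse gene identifiers, 55141 were found in GENCODE M21, which gave symbols and coordinates.

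Counts were summed over the wells of a group and divided by their nuclear-encoded total (199149016 for day 1 Ino80-high, 124700042 for day 3 Ino80-high and 178197781 for day 3 Ino80-low wells) to give CPM. Ratios used a floor of 3 counts where a group had 0. Genes 2-fold apart were counted among those with a mean of at least 10 CPM, and list members among those with at least 5 CPM. Named genes needed a mean of 20 CPM, a count in 10% of wells of the higher group, at most 25% of counts from a single well, the same sign when wells were weighted equally, and 2-fold without endothelial-marked wells; pseudogene-like, Rik, mitochondrial and ribosomal symbols were left out. List members were named mainly as the 2 to 4 farthest from 0, and further ones after their values were seen. Levels written as on day 1 are those of the day 1 Ino80-high wells, unless other wells are named. The wells, lists, rules and alternatives were chosen with earlier results of these data known. Doublets were not called. A few genes that were measured and counted are not reported here by name. The ratio and interval code was tested on simulated data. Python 3.11.15, numpy 2.4.6, scipy 1.17.1 and pandas 2.3.3 were used.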

Additional observations from a re-analysis of the deposited data

How the results depend on the processing

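With 1 library on each side, no spread between animals or libraries is known, and counting intervals do not cover it. The 792 genes at least 2-fold higher and 219 lower became 235 and 396 with mitochondrial counts in the total, 434 and 390 with median-of-ratios size factors, 135 and 84 with a minimum of 50 CPM, and 2779 and 696 with a minimum of 1 CPM. In wells with 25 to 35% mitochondrial counts the lower genes numbered 844. Under the other 13 alternatives both counts stayed within 1.5 times, from 760 to 953 higher and from 199 to 274 lower. These included the mean of per-well CPM, thinning to 30000 counts, other Ino80 limits, stricter well filters, and, chosen after seeing the data, the limits of 100 CPM on the endothelial sum and on all 3 marker sums. Of the 718 list medians under alternatives, 579 moved by at most 0.1 and 138 by more. The minimums of 50 CPM and 1 CPM apply to gene counts only and cannot move a list median. Their values are among the 579 and say nothing of stability. Among lists at least 0.5 from all genes the single reversal was the endothelial one, at -0.0137 with the endothelial sum under 100 CPM. That limit is set on genes of the same list. With 1 CPM added in the ranking, 13 of 15 higher and 15 of 15 lower named genes were shared. No paired analysis was possible because there is 1 library on each side and no shared replicate numbers.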

Other observations

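Genes of lipid synthesis, iron and insulin signalling differed in both directions inside lists with medians near that of all genes. In lipid synthesis 3 of 16 members (18.8%) were at least 2-fold higher, a share near the 16.6% of all genes. Fasn, fatty acid synthase, was at 30.7 CPM in day 1 Ino80-high wells, 17.2 CPM in day 3 Ino80-high wells and 9.30 CPM in day 3 Ino80-low wells. Mlxipl, the carbohydrate-responsive factor ChREBP, was at 23.8 CPM on day 1, 9.29 CPM in day 3 Ino80-high wells and 7.44 CPM in Ino80-low wells. Of 11 iron genes 3 (27.3%) were at least 2-fold higher and 2 (18.2%) lower, against 16.6% and 3.82% of all genes. The list median was -0.09 relative to all genes, or -0.99 in wells with 25 to 35% mitochondrial counts. Among them Tfrc was lower and Ftl1 and Fth1 were higher, Fth1 at 4402 CPM in day 1 Ino80-high wells and 2863 CPM in day 3 Ino80-low wells. Ireb2, an iron regulatory protein, was at 21.2 CPM on day 1 and 8.96 CPM in Ino80-low wells. Of 13 genes of insulin and IGF signalling 4 (30.8%) were at least 2-fold higher and 1 (7.69%) lower, beside the same shares of all genes. Irs2, an insulin receptor substrate, was at 76.6 CPM on day 1, 26.7 CPM in day 3 Ino80-high wells and 22.2 CPM in day 3 Ino80-low wells. Grb14, an inhibitor of the insulin receptor, was at 63.0 CPM on day 1, 34.02 CPM in day 3 Ino80-high wells and 165 CPM in Ino80-low wells. Of the autophagy list 4 of 25 members (16.0%) were at least 2-fold higher, no more than the 16.6% of all genes. Ulk1, the initiating kinase, was at 33.0 CPM in day 1 Ino80-high wells and 8.48 CPM in day 3 Ino80-low wells. Malat1, a nuclear long noncoding RNA, was at 5210 CPM on day 1, 3251 CPM in day 3 Ino80-high wells and 2252 CPM in day 3 Ino80-low wells. Bdh1, of ketone use, was at 10.9 CPM on day 1 and 31.2 CPM in Ino80-low wells.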
